A study of Mus musculus with 6 samples.

Results

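The genes described here are 9 genes of cholesterol synthesis, namely Srebf2, Hmgcs1, Idi1, Fdps, Fdft1, Sqle, Lss, Cyp51 and Dhcr7. They were taken by gene symbol from the 48587 rows of a gene-level read count table. The rule used no measured value, although earlier results of these data were known when the members were chosen. All 9 passed the filter on low counts and were among the 14311 genes that had enough counts to be tested. The counts came from RNA pulled down with ribosomes from neonatal mouse kidney. Foxp1-deficient animals carried Cdh16Cre, 2 floxed Foxp1 alleles and RiboTag (Cdh16Cre;Foxp1fl/fl;RiboTag), and 3 libraries were made from them. Littermate controls carried Cdh16Cre, RiboTag and a single floxed Foxp1 allele (Cdh16Cre;Foxp1fl/+;RiboTag), and they also gave 3 libraries. All animals thus had the Cre driver, the ribosome tag and at least one floxed allele, and an animal without Cre was not analysed here. The labels also give the Foxp1-deficient samples a chronic acid load and the controls a vehicle, so genotype and this labelled treatment cannot be told apart. Cdh16 is a cadherin gene of kidney tubule epithelium, and RiboTag puts an HA epitope on a ribosomal protein in cells that have expressed Cre, so that anti-HA beads collect RNA on their ribosomes. Nothing in the labels says that the replicates were separate animals, so every p-value refers to the spread among these libraries, and that spread may be technical.

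Total counts were 9710048 to 18958196 per Foxp1-deficient library and 11264609 to 18206881 per control library. The libraries numbered 2 of both groups were the shallowest and had the fewest detected genes, 14285 in Foxp1-deficient library 2 and 13885 in control library 2, against 18241 to 22190 in the other 4. Rows of ribosomal RNA type took 8.72% of Foxp1-deficient library 2 and 6.65% of control library 2, against 1.49% to 2.85% elsewhere. All levels below are CPM (counts scaled by library size and by edgeR's TMM factors). Foxp1 itself, the targeted gene, had 34.6, 11.4 and 29.3 CPM in Foxp1-deficient libraries 1, 2 and 3, against 48.8, 30.8 and 35.9 CPM in control libraries 1, 2 and 3, which was lower in each equally numbered pair without separating the groups. The labelled kidney tubular cells left few transcripts in the libraries numbered 1 and 2. Over 8 tubule markers the summed level was 5.32, 7.78 and 283 CPM in Foxp1-deficient libraries 1, 2 and 3, against 1.13, 30.5 and 268 CPM in control libraries 1, 2 and 3. Cdh16 had 0.283, 2.42 and 42.1 CPM in the Foxp1-deficient libraries and 0.332, 10.9 and 43.0 CPM in the controls, and the loop of Henle gene Umod was above 1 CPM only in Foxp1-deficient library 3 and control library 3. Summed over 5 stromal markers the level was 3078 to 13280 CPM in Foxp1-deficient libraries and 4824 to 13230 CPM in controls, so RNA of other cell types was present throughout. In such bulk RNA, fewer cells of a type and less RNA per cell cannot be told apart.

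Cells build cholesterol from acetyl-CoA through the mevalonate pathway, the squalene branch and a last series of sterol modifications. The transcription factor SREBP2, encoded by Srebf2, activates most genes of the route when sterol in the endoplasmic reticulum is low, and it is held back there when sterol is plentiful. The early steps also supply isoprenoids for protein prenylation, dolichol and ubiquinone. Hedgehog signalling, which takes part in kidney development, depends on sterols.

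Promoters of the listed genes are shown because textbook control of this pathway runs through short elements there, bound by SREBP2 together with NF-Y and Sp1. RefSeq promoter windows on GRCm38.p6 were found for 6 of the 9 genes (Cyp51, Dhcr7, Hmgcs1, Idi1, Lss and Srebf2), as 8 windows because Dhcr7 had 3. Hmgcs1, Idi1 and Cyp51 are printed, since they stand for the early and late steps. Cyp51 also differs from Hmgcs1 and Idi1 in how the libraries numbered 2 compare with the rest. The 250 bases before the RefSeq start are written in the gene's 5′ to 3′ direction. Capitals mark TCACNCCAC, a sterol regulatory element core, and CCAAT, the NF-Y box, each on either strand. Hmgcs1 lies at chr13:119690101-119690350 on the plus strand, Idi1 at chr13:8885356-8885605 on the plus strand and Cyp51 at chr5:4104698-4104947 on the minus strand. In the annotation used for counting, Idi1 begins at 8885501 and Cyp51 at 4104746. Both windows therefore run into the counted genes, and their marked CCAAT boxes lie in that part.
Hmgcs1: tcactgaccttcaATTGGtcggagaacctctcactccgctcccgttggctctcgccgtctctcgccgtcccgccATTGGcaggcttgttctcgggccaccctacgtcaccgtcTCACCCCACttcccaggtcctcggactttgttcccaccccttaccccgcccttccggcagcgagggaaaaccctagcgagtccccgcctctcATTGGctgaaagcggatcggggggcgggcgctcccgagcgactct
Idi1: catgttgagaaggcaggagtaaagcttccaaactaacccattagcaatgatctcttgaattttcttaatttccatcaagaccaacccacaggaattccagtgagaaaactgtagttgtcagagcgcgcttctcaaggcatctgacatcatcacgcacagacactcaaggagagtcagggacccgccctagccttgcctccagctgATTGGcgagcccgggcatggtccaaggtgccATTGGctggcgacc
Cyp51: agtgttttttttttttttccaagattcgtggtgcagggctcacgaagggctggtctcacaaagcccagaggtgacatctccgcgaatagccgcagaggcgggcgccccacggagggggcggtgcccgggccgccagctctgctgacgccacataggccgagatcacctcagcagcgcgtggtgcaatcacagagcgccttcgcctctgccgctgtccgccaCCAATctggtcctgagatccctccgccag

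TCACNCCAC was found in 1 of the 8 windows, that of Hmgcs1, and in 1.05% of all 32851 promoter windows of the same length. No other spelling of the sterol regulatory element was searched, so a window without these letters can still hold a variant of it. CCAAT was found in 6 of the 8 windows and in 33.8% of all windows, and at least 1 window of each of the 6 genes held it. GGGCGG, a GC box of the Sp1 type, was found in 7 of the 8 windows and in 32.7% of all windows. TGTTTAC, a forkhead core of the kind that FOXP proteins can bind, was found in 0 of the 8 windows and in 3.17% of all windows. All 4 motifs were searched on both strands, a match is a description of these letters, and TCACNCCAC and CCAAT do not overlap in the windows shown.

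None of the 9 genes passed the test between genotypes, although 8 of the 9 were on the higher side in Foxp1-deficient libraries. For Hmgcs1, Idi1 and Srebf2 both libraries numbered 2 lay below the other 4, and for Fdps and Fdft1 they lay above the other 4. Lss was lowest in library 2 within each genotype, although not below all of the other 4.

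Srebf2 (mm10 chromosome 15, 82147266 to 82205376) had 211, 110.4 and 243 CPM in Foxp1-deficient libraries 1, 2 and 3, against 208, 114 and 207 CPM in control libraries 1, 2 and 3. The level was low in library 2 of each group, and the groups overlapped. The group means were 188 ± 69.0 CPM in Foxp1-deficient libraries and 176 ± 54.3 CPM in controls (SD, n = 3 each). The log2 fold change of Foxp1-deficient over control was 0.09 (SE 0.45). Srebf2 is thus the member with the smallest fold change, which was 0.07 (SE 0.13) when the replicate number was a block in the fit.

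The mevalonate steps were represented by Hmgcs1, Idi1 and Fdps. Hmgcs1 (chromosome 13, 119690462 to 119708086) encodes the synthase that makes HMG-CoA early in the route. It had 207, 90.0 and 241 CPM in Foxp1-deficient libraries 1, 2 and 3, against 234, 68.0 and 196 CPM in control libraries 1, 2 and 3. Library 2 was the lowest of its group in both genotypes, the pairs went both ways and the groups overlapped. The log2 fold change was 0.11 (SE 0.58). Idi1 (chromosome 13, 8885501 to 8892451) encodes the isomerase that interconverts the pathway's pair of isoprenoid building blocks. It had 31.2, 3.83 and 32.2 CPM in Foxp1-deficient libraries 1, 2 and 3, against 24.9, 1.47 and 26.4 CPM in control libraries 1, 2 and 3. These are 552, 30 and 704 counts in the Foxp1-deficient libraries, against 375, 14 and 543 counts in the controls. Idi1 was higher in the Foxp1-deficient library of each pair, while both libraries numbered 2 lay far below the other 4, so the groups overlapped. Its log2 fold change was 0.35 (SE 1.07), or 0.58 (SE 0.30) with the replicate block.

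Fdps (chromosome 3, 89093588 to 89101959) encodes farnesyl diphosphate synthase, at the fork between sterols and prenylation. It had 2.71, 6.12 and 3.39 CPM in Foxp1-deficient libraries 1, 2 and 3, against 3.72, 6.62 and 3.11 CPM in control libraries 1, 2 and 3, from 48 to 74 counts in each library. Fdps was the only member with a negative log2 fold change, -0.14 (SE 0.74), and it was highest in both libraries numbered 2. Its level is uncertain, since 26.7% of its exon bases also lie in exons of Gm43738 on the same strand. The recorded counting command had no option to count reads that overlap several genes, and Gm43738 had 0 CPM in every library.

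The squalene steps were represented by Fdft1, Sqle and Lss. Fdft1 (chromosome 14, 63145153 to 63177793) encodes squalene synthase, which commits farnesyl diphosphate to sterols. It had 76.0, 181 and 87.8 CPM in Foxp1-deficient libraries 1, 2 and 3, against 84.9, 111 and 74.1 CPM in control libraries 1, 2 and 3. Both libraries numbered 2 were the highest of their group, and the groups overlapped, with a log2 fold change of 0.35 (SE 0.44). Of its exon bases, 26.8% lie in exons of Ctsb on the opposite strand, a gene at 182 to 687 CPM, and the command recorded no strand setting, so part of this value is uncertain. Sqle (chromosome 15, 59315077 to 59331192) encodes squalene monooxygenase, a rate-limiting enzyme of the route. It had 133, 155 and 122 CPM in Foxp1-deficient libraries 1, 2 and 3, against 127, 119 and 104 CPM in control libraries 1, 2 and 3. Sqle varied least of the 9 over the 6 libraries and was higher in the Foxp1-deficient library of each pair, although the lowest Foxp1-deficient library lay below the highest control. The means were 137 ± 17.0 CPM in Foxp1-deficient libraries and 117 ± 11.8 CPM in controls (SD, n = 3 each), a log2 fold change of 0.23 (SE 0.32).

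Lss (chromosome 10, 76531588 to 76557138) encodes lanosterol synthase, which folds oxidised squalene into the first sterol. It had 55.9, 49.5 and 65.1 CPM in Foxp1-deficient libraries 1, 2 and 3, against 49.2, 34.8 and 48.1 CPM in control libraries 1, 2 and 3. Every Foxp1-deficient library was above every control, although Foxp1-deficient library 2 and control library 1 were nearly equal. The means were 56.8 ± 7.88 CPM in Foxp1-deficient libraries and 44.0 ± 8.03 CPM in controls (SD, n = 3 each). The log2 fold change was 0.37 (SE 0.33), and with the replicate block, where Lss had the lowest p of the 9, it was 0.38 (SE 0.16). That fit's adjusted p was 0.853 in edgeR's quasi-likelihood test with Benjamini-Hochberg adjustment.

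Among the steps after lanosterol, Cyp51 (chromosome 5, 4081145 to 4104746) encodes the sterol demethylase whose fungal counterpart azole drugs inhibit. It had 166, 382 and 150.5 CPM in Foxp1-deficient libraries 1, 2 and 3, against 174, 153 and 147 CPM in control libraries 1, 2 and 3. Foxp1-deficient library 2 alone stood apart from the other 5, which lay between 147 and 174 CPM. The log2 fold change was 0.56 (SE 0.46), the largest of the 9, and it was -0.02 when both libraries numbered 2 were left out. Dhcr7 (chromosome 7, 143823145 to 143848410) encodes the reductase of a final step to cholesterol, whose loss in people causes Smith-Lemli-Opitz syndrome. It had 29.5, 36.2 and 31.7 CPM in Foxp1-deficient libraries 1, 2 and 3, against 29.0, 18.0 and 23.6 CPM in control libraries 1, 2 and 3. The groups did not overlap, with Foxp1-deficient library 1 and control library 1 nearly equal. The means were 32.5 ± 3.41 CPM in Foxp1-deficient libraries and 23.5 ± 5.54 CPM in controls (SD, n = 3 each), a log2 fold change of 0.46 (SE 0.36).

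**Figure D1:**
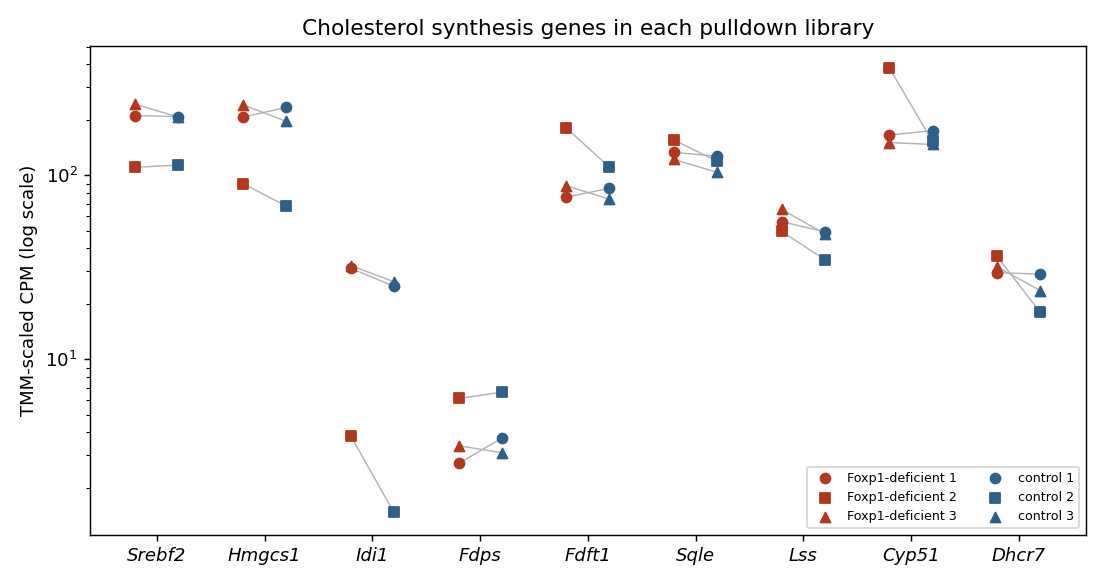
TMM-scaled CPM on a log axis for each of the 9 genes, one point per library, with Foxp1-deficient libraries left of controls for each gene and a grey line joining libraries of equal number (circles 1, squares 2, triangles 3). The squares lie lowest for Srebf2, Hmgcs1 and Idi1 and highest for Fdps and Fdft1 in both groups, and Cyp51 has a single high point, 382 CPM, in Foxp1-deficient library 2.

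To compare levels between genes, CPM was divided by exon length (RPKM). Over the 6 libraries the median was 62.3 RPKM for Hmgcs1, 41.6 for Srebf2, 36.0 for Cyp51, 30.2 for Fdft1, 22.4 for Sqle, 7.32 for Idi1, 5.03 for Dhcr7, 4.58 for Lss and 0.845 for Fdps. The first 5 formed a run of neighbours with overlapping ranges, from 18.7 to 86.4 RPKM. Sqle, at 18.7 to 28.0 RPKM, did not overlap with the next gene, Idi1, at 0.420 to 9.19 RPKM. Idi1, Dhcr7 and Lss overlapped with each other, and Lss, at 3.22 to 6.04 RPKM, did not overlap with Fdps, at 0.645 to 1.57 RPKM. The lengths are of all annotated exons of a gene, 10787 bases for Lss, so a gene with many noncoding or rare exons can have a low RPKM for that reason. The ranks of Fdps and Fdft1 are also uncertain, since 26.7% and 26.8% of their exon bases are shared with other genes. The ratio of the highest to the lowest library was 21.9 for Idi1 and 3.55 for Hmgcs1, and at most 2.60, for Cyp51, among the other 7, with Sqle the least variable.

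In edgeR's quasi-likelihood test over 14311 genes, 0 of the 9 genes passed an adjusted p of 0.05, against 0.0% of all genes (adjusted p = 0.9998 for each of the 9). No member had an unadjusted p under 0.05, against 0.72% of all genes. With the replicate number as a block the same test called 0 of the 9, against 0.0% of all genes, and the members' adjusted p ran from 0.853 to 0.941. No member had an unadjusted p under 0.05 with the block, against 5.32% of all genes. DESeq2 with the block called 169 genes, or 1.43% of 11814, and 0 of them were members. DESeq2 without the block called 6 (0.0426%), limma-voom with the block 8 (0.0559%) and edgeR with the block on the 4 libraries numbered 1 and 3 called 30 (0.196%), again with 0 members. Over the members' values under 19 other settings, 0 of 170 passed. Log2 fold changes were above 0 for 8 of the 9 members, against 53.6% of all genes tested. Their median was 0.35, against 0.03 over all genes, and in the fit with the block 0.26, against -0.01, with 8 members and 49.5% of all genes above 0. A member's test that misses the threshold with these SEs does not show equal levels, since an SE of 0.32 to 1.07 leaves room for sizeable differences.

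Libraries of equal number were compared next, because they varied together across genes. In pair 1, 5 of the 9 genes were higher in the Foxp1-deficient library, against 50.1% of all genes, with a median log2 ratio of 0.02. In pair 2, 7 of the 9 were higher, against 48.3%, with a median of 0.51. In pair 3 all 9 were higher, against 49.0%, with a median of 0.25, and their ratios ran from 0.04 for Cyp51 to 0.44 for Lss. The direction in favour of the Foxp1-deficient library was therefore shared by every member in pair 3, and it was divided in pairs 1 and 2. Idi1, Sqle, Lss and Dhcr7 were higher in all 3 pairs, which is 4 of 9, against 16.5% of all genes, and 0 of 9 were lower in all 3, against 16.0%. Groups did not overlap for 2 of the 9, Lss and Dhcr7, against 2.64% of all genes, and with scaling by library totals alone they overlapped for all 9, against 2.1% of all genes without overlap.

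**Figure D2:**
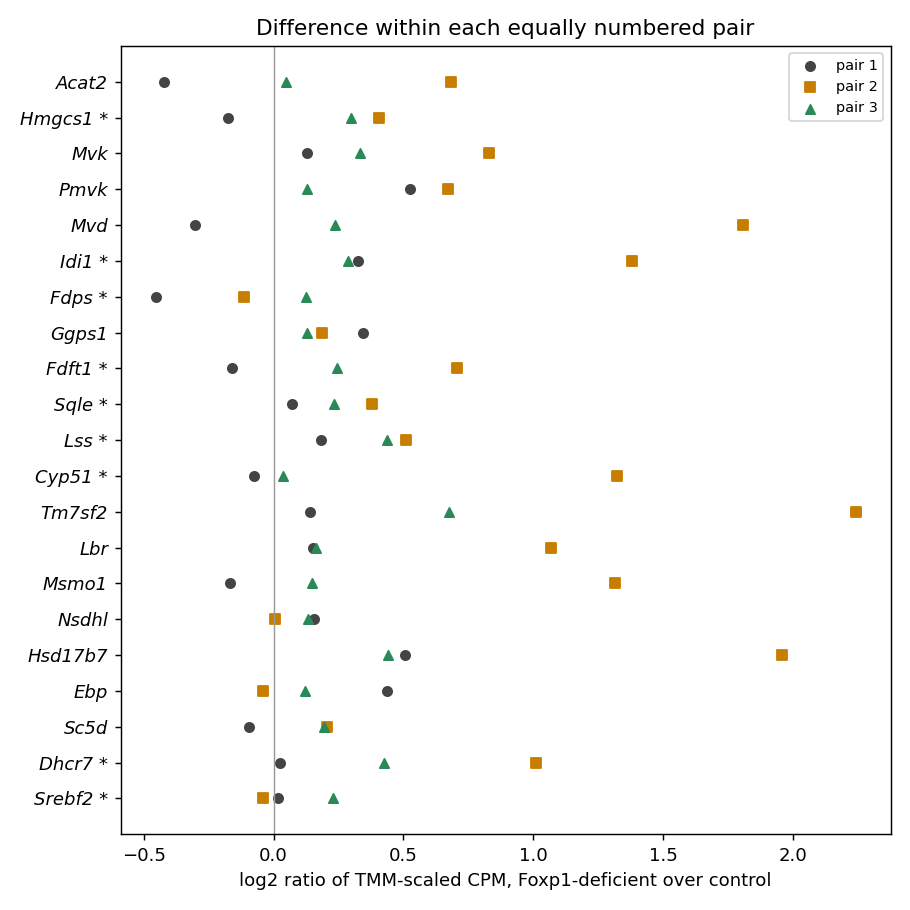
Log2 ratio of TMM-scaled CPM, Foxp1-deficient over control, within each equally numbered pair (grey circles pair 1, orange squares pair 2, green triangles pair 3) for 21 synthesis genes in pathway order with Srebf2 last, the 9 listed genes starred. All 21 triangles lie above 0, while the circles lie on both sides and the squares reach 2.24 for Tm7sf2.

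The libraries numbered 2 stood far from the others of their group for several members. Their level is given as a percentage of the mean of libraries 1 and 3 of the same group. For Idi1 it was 12.1% in Foxp1-deficient library 2 and 5.73% in control library 2. For Hmgcs1 it was 40.2% in Foxp1-deficient library 2 and 31.6% in control library 2, and for Srebf2 48.7% in Foxp1-deficient library 2 and 54.7% in control library 2. On the other side, Fdps stood at 201% in Foxp1-deficient library 2 and 194% in control library 2, and Fdft1 at 221% in Foxp1-deficient library 2 and 139% in control library 2. Members of the same pathway thus went opposite ways in these libraries. Cyp51 stood at 241% in Foxp1-deficient library 2 and 95.0% in control library 2. Over all genes, 34.5% were lowest and 24.6% highest in both libraries numbered 2, so the members' 3 and 2 of 9 are shares of a pattern that ran through the whole table. The depth, the share of ribosomal RNA rows and the cell type markers of these libraries moved with it, and their part was not tested.

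**Figure D3:**
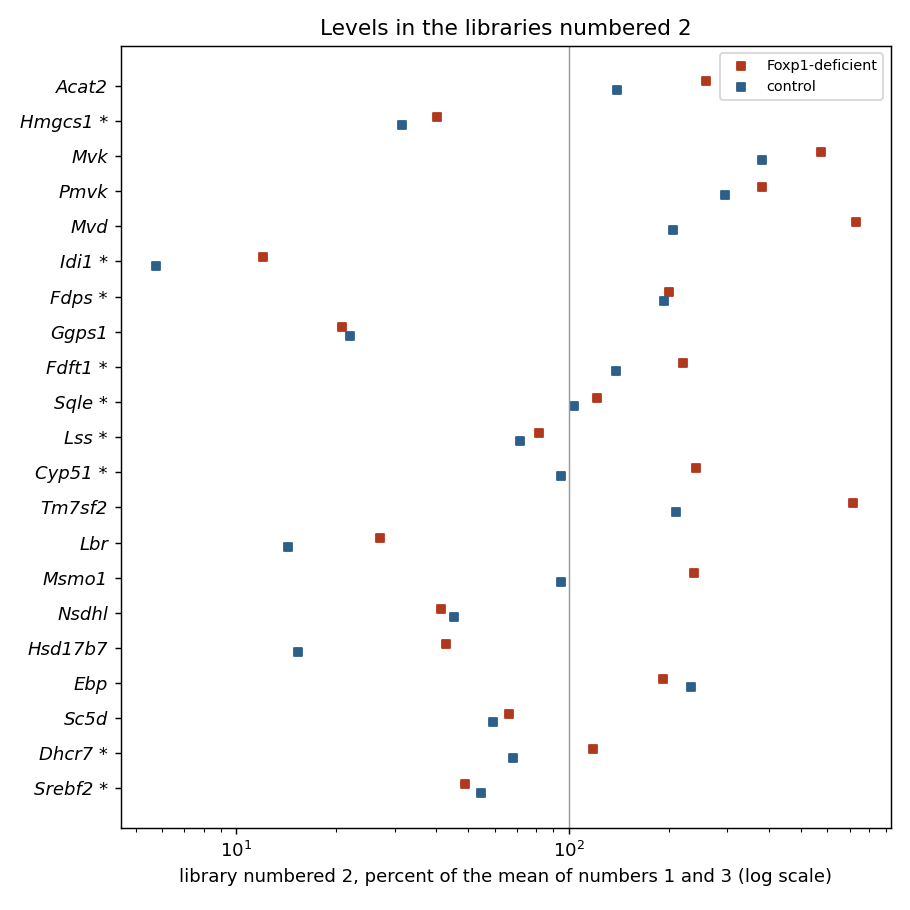
Level in the library numbered 2 as a percentage of the mean of libraries 1 and 3 of the same group, on a log axis, for 21 synthesis genes in pathway order (red Foxp1-deficient, blue control, 1 square per group and gene). Points run from 5.73% for Idi1 in control library 2 to 729% for Mvd in Foxp1-deficient library 2, and both squares of a gene mostly lie on the same side of 100%.

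Of the other 14 genes of the route, all of which were tested, 0 passed in edgeR's test. All 14 had a log2 fold change above 0, against 53.6% of all genes, with a median of 0.39, or 0.43 with the replicate block. For the 23 genes together, a grouping chosen after the values were seen, 22 were on the higher side and the median was 0.35. Tm7sf2, a sterol reductase gene, had 3.96, 43.2 and 8.15 CPM in Foxp1-deficient libraries 1, 2 and 3, against 3.59, 9.14 and 5.10 CPM in control libraries 1, 2 and 3. Mvd, encoding mevalonate diphosphate decarboxylase, had 22.4, 199 and 32.2 CPM in Foxp1-deficient libraries 1, 2 and 3, against 27.6, 56.8 and 27.4 CPM in control libraries 1, 2 and 3. For both genes Foxp1-deficient library 2 stood far above the other 5, and the log2 fold changes were 1.63 (SE 0.93) for Tm7sf2 and 1.18 (SE 0.85) for Mvd. Of the exon bases of Tm7sf2, 15.3% lie in exons of Vps51 on the same strand, so its level is uncertain. Msmo1, encoding a methyl sterol oxidase that acts later in the route than Cyp51, had 103, 249.6 and 106 CPM in Foxp1-deficient libraries 1, 2 and 3, against 116, 100.3 and 95.2 CPM in control libraries 1, 2 and 3. It thus had the same single high library as Cyp51.

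Mvk, the gene of mevalonate kinase, was chosen after the values were seen because it lay opposite to Hmgcs1. It stood at 575% of the mean of libraries 1 and 3 in Foxp1-deficient library 2 and at 380.3% in control library 2. Over the 23 genes, 9 were lowest and 8 highest in both libraries numbered 2.

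**Figure D4:**
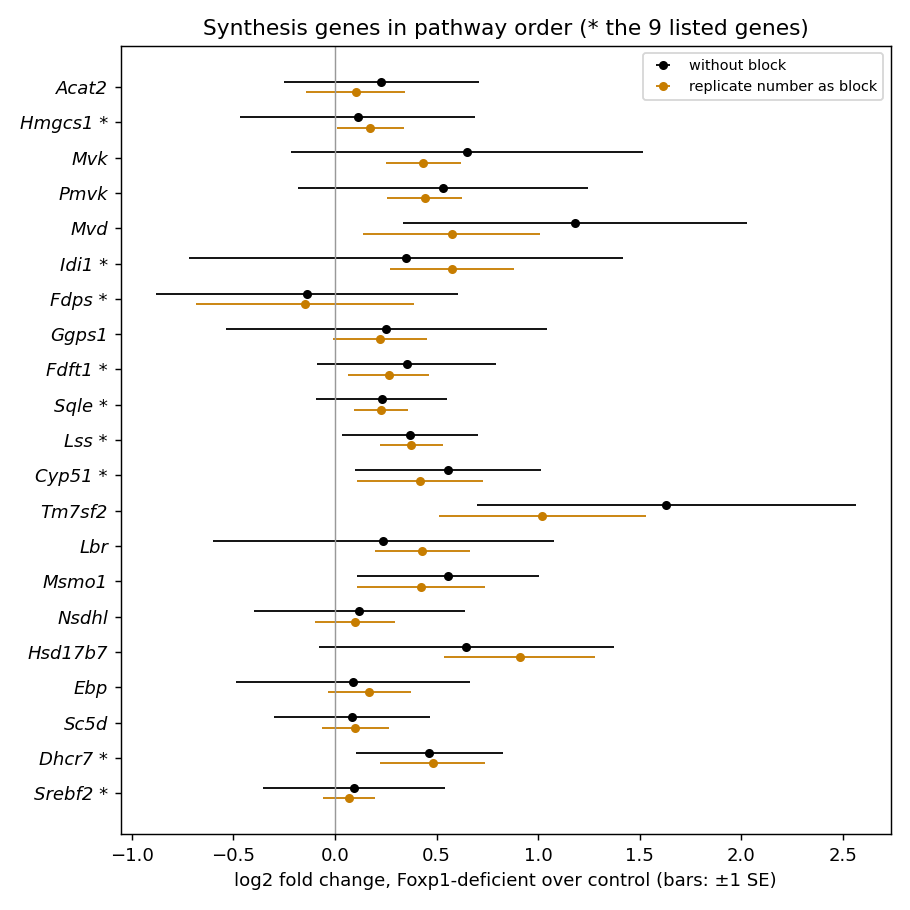
Log2 fold change of Foxp1-deficient over control with bars of 1 SE in edgeR's fit without a block (black) and with the replicate number as a block (orange), for 21 synthesis genes in pathway order with Srebf2 last, the 9 listed genes starred. Of the 21 estimates without a block, 20 lie above 0, from 0.09 for Sc5d to 1.63 for Tm7sf2, and Fdps lies at -0.14, with bars that are shorter with the block for most genes.

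Without both libraries numbered 2, the median log2 fold change of the 9 genes was 0.13, with 7 above 0, against 49.8% of all genes. Over the 23 genes it was 0.15, with 18 above 0, and the estimates of Mvd and Msmo1 were -0.0042 and -0.012. Of the 14 other synthesis genes, 9 were above 0 without control library 2, and also 9 without Foxp1-deficient library 2. Without Foxp1-deficient library 3, 5 of the 9 were above 0, against 48.6% of all genes. With limma-voom's quality weights on all 6 libraries the median of the 9 was 0.13, with 8 above 0. The summed level of the 9 genes was 912, 1013 and 976 CPM in Foxp1-deficient libraries 1, 2 and 3, against 935, 625 and 829 CPM in control libraries 1, 2 and 3. Control library 2 was the low one, and Foxp1-deficient library 1 lay below control library 1.

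Levels of some cell type markers differed too, by group or by library number. Mesothelial markers, of which 3 of 4 had a positive log2 fold change, summed to 1919 to 4407 CPM in Foxp1-deficient libraries and 1428 to 1854 CPM in controls. Leukocyte markers were lower for 5 of 5 genes, with overlapping sums of 46.8 to 331 CPM in Foxp1-deficient libraries and 246 to 778 CPM in controls. Hepatocyte markers were highest in the libraries numbered 2, at 150.3 CPM in the Foxp1-deficient and 328 CPM in the control library, against 20.0 to 51.0 CPM in the other 4. The part of these cells in the sterol genes' values was not tested. Of the adrenal cortex, a tissue rich in sterol synthesis, Cyp11b1, Cyp21a1, Nr5a1 and Mc2r were at 0 in all 6 libraries. The 6 markers summed to 1.30 to 2.20 CPM in Foxp1-deficient libraries and 3.69 to 6.20 CPM in controls. Nearly all of this was the single gene Star, since Cyp11a1 had counts only in control library 3, where it had 3.

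Genes that govern SREBP2, sterol uptake, efflux and fatty acid synthesis were read from lists, none with a member that passed edgeR's test. In the fit of all 6 libraries, 53.6% of all genes tested lay above 0. Of 11 SREBP control genes, 8 lay above 0 and 3 below it, and the median log2 fold change was 0.17, or 5 above 0 and a median of -0.02 without Foxp1-deficient library 3. Scap, encoding the escort that carries SREBP2 to the Golgi, had 45.8, 64.6 and 48.6 CPM in Foxp1-deficient libraries 1, 2 and 3, against 37.9, 34.4 and 40.8 CPM in control libraries 1, 2 and 3. Erlin1, encoding a cholesterol-binding protein of the endoplasmic reticulum that restrains SREBP activation, had 38.0, 30.2 and 37.7 CPM in Foxp1-deficient libraries 1, 2 and 3, against 28.4, 7.35 and 27.2 CPM in control libraries 1, 2 and 3. The groups of these 2 of the 11 genes did not overlap, against 2.64% of all genes, and both were named for a low p in this list. With scaling by library totals alone the groups of Erlin1 overlapped. The log2 fold changes were 0.49 (SE 0.33) for Scap and 0.75 (SE 0.54) for Erlin1. Srebf1, the gene of the related factor of fatty acid synthesis, had a log2 fold change of 0.28 (SE 0.35) and Rnf139 0.22 (SE 0.39).

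Of 10 uptake and transport genes, 7 lay above 0 and 3 below it (median 0.18). Lrp2, encoding the endocytic receptor megalin, had 52.5, 121 and 176 CPM in Foxp1-deficient libraries 1, 2 and 3, against 33.1, 32.5 and 101 CPM in control libraries 1, 2 and 3. It was called as higher by DESeq2 with the block (adjusted p = 0.0258), which called 1.43% of 11814 genes, and not by edgeR. Lipa, a lysosomal lipase gene, had a log2 fold change of -0.51 (SE 0.60), and Scarb1, the receptor gene for high-density lipoprotein, 0.23 (SE 0.34).

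Among 8 tested genes of the oxysterol receptor LXR, efflux and storage, 2 lay above 0 and 6 below it (median -0.53). A ninth, Nr1h3, had too few counts. Apoe, encoding the lipoprotein component that macrophages also make, had 41.3, 436 and 176 CPM in Foxp1-deficient libraries 1, 2 and 3, against 88.4, 933 and 538 CPM in control libraries 1, 2 and 3. DESeq2 with the block, which called 1.43% of 11814 genes, called Apoe (adjusted p = 3.19e-09), while edgeR with the block did not (adjusted p = 0.359). Apoe was lower in each pair. The leukocyte markers given above were likewise lower within every pair, and their part was not tested. Ch25h, Abcg1 and Soat1 had log2 fold changes of -0.90 (SE 0.66), -0.76 (SE 0.81) and -0.41 (SE 0.47).

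Fatty acid synthesis, which shares SREBP control with the sterol route, had 9 of 11 tested genes above 0 and 2 below it (median 0.29), and Thrsp had too few counts to test. Scd1, encoding a stearoyl-CoA desaturase, had 82.8, 50.9 and 52.6 CPM in Foxp1-deficient libraries 1, 2 and 3, against 36.4, 4.52 and 27.5 CPM in control libraries 1, 2 and 3. Its groups did not overlap, and DESeq2 with the block called Scd1 (adjusted p = 0.0257) and the related Scd2 (adjusted p = 0.0137), which was named after its value was seen. These were 2 of the 11, against 1.43% of 11814 genes called by that fit. Groups of 2 of the 11 did not overlap, against 2.64% of all genes. Fasn, the fatty acid synthase gene and the other one of these, also named after its values were seen, had 343, 338 and 344 CPM in Foxp1-deficient libraries 1, 2 and 3, against 283, 268 and 299 CPM in control libraries 1, 2 and 3. Its libraries thus lay close together within each genotype, with a log2 fold change of 0.27 (SE 0.33), and its groups overlapped with scaling by library totals alone. That SE draws on the spread of other genes as well. Elovl6, Acss2 and Acaca had log2 fold changes of 0.56 (SE 0.36), 0.88 (SE 0.84) and 0.35 (SE 0.38). Of 10 genes of the isoprenoid branches, 6 lay above 0 and 4 below it (median 0.05), or 5 above 0 with scaling by library totals. Pdss2, Dhdds, Pggt1b and Fntb, which serve ubiquinone, dolichol and prenylation, had log2 fold changes of -0.30 (SE 0.55), 0.33 (SE 0.63), 0.19 (SE 0.47) and -0.18 (SE 0.49).

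**Figure D5:**
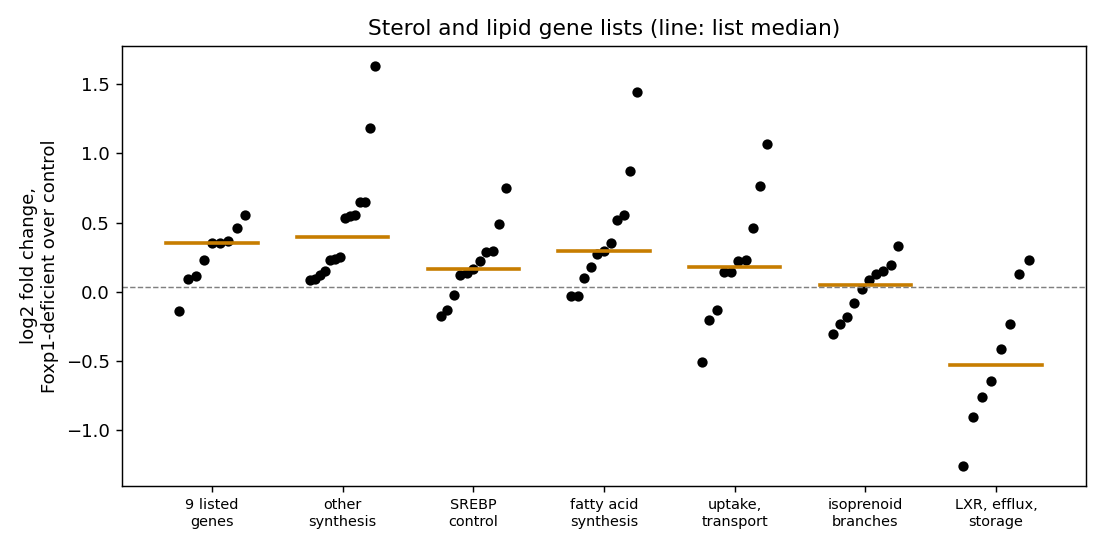
Log2 fold change of Foxp1-deficient over control in edgeR's fit for each tested gene of the 9 listed genes and of 6 lists of related genes, 1 point per gene sorted within the list, with a line at the list median and a dashed line at the median of all genes, 0.03. Medians run from 0.39 for the other synthesis genes to -0.53 for the LXR, efflux and storage genes, and no point passed the test.

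Genes outside the list whose level over the 6 libraries was most like the mean standardised level of the 9 members were Apol7a, Lins1, Lrrn1, Sh3tc2 and Itfg1. Likeness was Pearson's correlation over 6 libraries, from 0.978 for Itfg1 to 0.994 for Apol7a, given as a description. The members did not share 1 pattern. Of 36 pairs of members, 14 had a correlation above 0.5 and 8 had one below -0.5, with a median of 0.259. The mean level thus joins members that went opposite ways, and likeness to it is not likeness to each member. These libraries share depth and cell makeup, and 80 of the genes compared (0.614%) exceeded 0.9. Apol7a had 0 counts in control library 2 and at most 2.93 CPM. Sh3tc2 had 53.8, 57.9 and 52.9 CPM in Foxp1-deficient libraries 1, 2 and 3, against 47.6, 26.6 and 36.8 CPM in control libraries 1, 2 and 3.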

How the data were processed

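RNA from an anti-HA ribosome pulldown was sequenced in 3 Foxp1-deficient and 3 control libraries of neonatal mouse kidney. The deposited values are raw counts of read pairs per gene, made by the authors with featureCounts 1.5.1 over exons grouped by gene name, with an mm10 annotation whose path names V86, per the file headers. Its command set no strand, multi-mapping or overlap option. The submitters' processing notes also list STAR, Trimmomatic, SAMtools, FastQC, DESeq2 and deepTools, without versions. Gene lengths are those deposited in the same table, and other processing settings were not given in the sources used here. Library columns are named by group and number (c for control, ko for Foxp1-deficient), which matches the titles.

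From the counts, edgeR 4.0.16 (R 4.3.3) gave TMM factors, filterByExpr kept 14311 genes, and the quasi-likelihood test compared 3 with 3 libraries with Benjamini-Hochberg adjustment over all genes tested and a threshold of 0.05. DESeq2 1.42.0 and limma 3.58.1 were alternatives. The SE given for an edgeR fold change was derived from its test, as the absolute log2 fold change divided by the square root of the F statistic. That test shares estimates of spread among genes, so the SE and p-value do not rest on the spread of a gene's own libraries alone. CPM and RPKM were computed with TMM factors. The fits were run on simulated data with planted changes larger than those of the members, so that check does not cover changes of the members' size. The labels do not say that replicate numbers pair libraries. Equally numbered libraries deviated together across 14311 genes (r = 0.707, 0.685 and 0.717, against -0.546 to 0.109 for unequal numbers). The deviations were from each group's mean over 3 libraries, so a positive r for equal numbers lowers the r for unequal numbers by construction. Equally numbered libraries were taken as pairs from the data and not from the labels, and a fit with the number as a block was an alternative. Named genes are all 9 members, up to 4 of lowest p in each related list, and the 5 most alike genes. The members, lists and tests were chosen with earlier results of these data known. Some genes counted in the lists are not reported here by name.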

Additional observations from a re-analysis of the deposited data

How the results depend on the processing

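Of 14311 genes, 0 passed in edgeR, while DESeq2 called 6, DESeq2 with the replicate block 169, limma-voom with the replicate block 8, and edgeR with the replicate block and without the libraries numbered 2 called 30. edgeR with the replicate block on all libraries called 0, and leaving out a library called 0 each time. No member was among any of these calls, so the block changed no call of a member. The cause was not tested.

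Of 170 member values under 19 settings, 13 changed sign. With the libraries numbered 2 left out, log2 fold changes without and with the block were -0.0185 and -0.0144 for Cyp51, -0.00418 and -0.0234 for Mvd, -0.0121 and -0.00417 for Msmo1, 0.0392 and 0.0473 for Pdss2 and -0.0486 and -0.04 for Dhdds. limma-voom with quality weights gave 0.0585 for Pdss2. With a library left out, values ran from -0.264 to 0.443 for Hmgcs1, -0.19 to 0.849 for Idi1, -0.545 to 0.236 for Fdps, -0.128 to 0.562 for Fdft1, -0.148 to 0.366 for Srebf2, -0.441 to 1.61 for Mvd, -0.975 to 0.0292 for Lipa, -0.491 to 0.00488 for Pdss2, -0.538 to 0.806 for Dhdds, -0.0363 to 0.386 for Pggt1b and -0.576 to 0.285 for Fntb. The median of the 9 members lay between 0.128 and 0.443 over the settings, with 5 to 8 of 9 above 0. Few counts lie behind Idi1 in the libraries numbered 2, at 30 and 14, and behind Fdps, at 48 to 74 in each library, which limits the precision of these values.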
